A study of Mus musculus with 2 samples.

Results

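Chemokines and their receptors were examined in cultured muscle progenitors of neonatal mice with and without Pax7, the paired-box factor of muscle stem cells. The members were the rows of the deposited table whose symbol is a numbered Ccl, Cxcl, Ccr or Cxcr gene, or Cx3cl1 or Cx3cr1. There were 56 of them, 38 ligands and 18 receptors, among 23235 genes. The series holds 1 polyA RNA-seq library from Pax7 KO and 1 from WT neonates. In the Pax7 KO mice a tamoxifen-inducible Cre at the Pax7 locus (Pax7CreER/+) deleted a floxed allele (Pax7flox/flox), after 75 µg of tamoxifen per g of body weight on 5 consecutive days from day 5. Such a Cre acts only in cells that express Pax7. Whether the WT mice received tamoxifen or carried the Cre, and how many animals gave each culture, is not stated in the labels. Cells of both genotypes were released from hind limb and back muscle with pronase, enriched by sedimentation and grown as myoblasts on Matrigel with serum and bFGF.

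With 1 library per genotype there is no spread between replicates, no test and no p-value, and each difference is one between these 2 libraries. Levels are FPKM, fragments scaled to transcript length and library size, so they may be compared between genes. Differences are given as the log2 ratio, log2((KO FPKM + 1)/(WT FPKM + 1)), in which the added 1 shrinks the change of weakly expressed genes. A 2-fold difference means a log2 ratio of at least 1 in size. The median of the 11751 genes with a mean FPKM of 1 or more had a log2 ratio of 0.42, so ratios are also given after subtracting it ("relative to the median gene"). Low values of the table pointed to about 21200000 fragments in Pax7 KO and 25300000 in WT. Another reading, with 45100000 and 54100000 fragments, matched the values slightly better; the smaller one was used because it gives the wider counting intervals. Pax7 stood at 0.769 FPKM in Pax7 KO and 3.21 FPKM in WT.

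The cultures held RNA of other cell types beside the labelled one. The satellite cell markers Myod1 and Myf5 were at 17.9 and 1.58 FPKM in Pax7 KO, against 90.4 and 14.8 FPKM in WT. Other markers of that list differed less. Itga7 and Vcam1 were at 34.1 and 12.0 FPKM in Pax7 KO, against 43.6 and 15.9 FPKM in WT. Heyl was higher as deposited, at 20.7 FPKM in Pax7 KO and 15.4 FPKM in WT. The 14 endothelial markers summed to 1059 FPKM in Pax7 KO and 580 FPKM in WT, and none was under 7 FPKM in either library. Fewer cells of a type and less RNA per cell cannot be told apart in bulk RNA.

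Chemokines are small secreted proteins that draw cells along a gradient; they are classed by the spacing of their first cysteines into CC, CXC and CX3C ligands. They act through G protein-coupled receptors, and a receptor often has several ligands. In muscle, the CC ligand Ccl2 recruits monocytes after injury, Cxcl12 and its receptor Cxcr4 guide migrating muscle precursors, and the ELR-type CXC ligands attract neutrophils through Cxcr2.

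A few ligands were abundant, 19 of the 38 ligands had a mean FPKM under 1, and few members differed by 2-fold. Of the 56 members, 24 had a mean FPKM of 1 or more, 19 ligands and 5 receptors. As deposited, 2 of the 24 were at least 2-fold higher in Pax7 KO, Cxcr4 and Cxcl10, where 5.06% of all genes above the limit were. The 1 member at least 2-fold lower was Ccl21a, against 0.689% of all genes. Relative to the median gene, none of the 24 was 2-fold higher, against 1.35% of all genes, and 3 were 2-fold lower, Ccl21a, Cxcl5 and Ccl5. These 3 are 12.5% of the 24, against 1.45% of all genes. Ccl21a, at 0.227 FPKM in Pax7 KO and 1.79 FPKM in WT, reached the limit through its WT value alone. Its place among the lower members, on both scales, therefore follows in part from the filter.

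The members lay on both sides of the median gene. The median of the 24 ratios was 0.20 as deposited and -0.22 after centring on the median gene. As deposited, 8 of the 24 had lower FPKM in Pax7 KO than in WT, 33.3% of them, where 11.4% of all genes did. Relative to the median gene 15 of the 24 were lower, 62.5%, against 50.0% of all genes. Of the 24, 7 were higher as deposited and lower relative to the median gene: Ccl2, Ccl27a, Ccl9, Cxcl1, Cxcl12, Cxcl14 and Cxcr7. The direction of these 7 therefore depends on the scaling. The summed FPKM of all 56 members was 686 in Pax7 KO and 538 in WT.

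**Figure D1:**
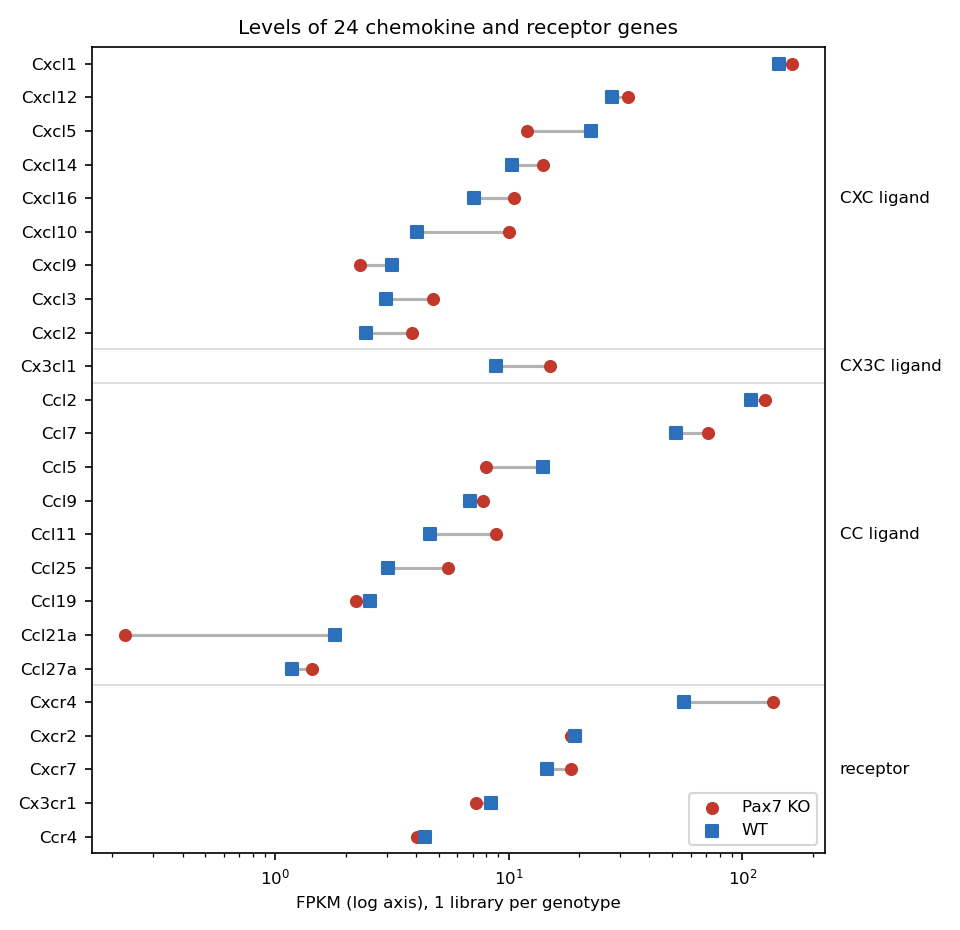
FPKM on a log axis of the 24 members with a mean of 1 or more in the Pax7 KO library (red circles) and the WT library (blue squares), ordered within each class by the WT level, with a grey line joining the values of a gene. Cxcl1 and Ccl2 are the highest ligands in both libraries, Cxcr4 reads 135 FPKM in Pax7 KO and 56.3 FPKM in WT, and the widest gap is that of Ccl21a.

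The ELR-type CXC ligands, which attract neutrophils through Cxcr2, went in both directions as deposited. Cxcl1 (chromosome 5, 91320271 to 91322141, mm9) was the highest member of the family in both libraries, at 163 FPKM in Pax7 KO and 144 FPKM in WT. It stood above 98.5% of all genes in Pax7 KO and above 98.8% in WT. Its log2 ratio of 0.18 was -0.24 relative to the median gene. Cxcl2 was at 3.85 FPKM in Pax7 KO and 2.43 FPKM in WT. Cxcl3 was at 4.71 FPKM in Pax7 KO and 2.97 FPKM in WT, and both of these genes were within 0.11 of the median gene. Cxcl5 (chromosome 5, 91188325 to 91190651), which lies in the same gene cluster, was lower, with 12.0 FPKM in Pax7 KO and 22.5 FPKM in WT. Its FPKM was 1.88-fold lower in Pax7 KO, its log2 ratio -0.86, and its ratio relative to the median gene -1.28. The log2 of its FPKM ratio had an approximate 95% exact counting interval of -1.07 to -0.76, from about 472 fragments in Pax7 KO and 1062 in WT. The intervals of Cxcl1 (0.13 to 0.23), Cxcl2 (0.33 to 1.01) and Cxcl3 (0.43 to 0.90) all lay above 0 as deposited. These intervals cover counting error only, not differences between cultures or animals. Cxcl15, the remaining member of this cluster under the symbol rule and one known from lung, was at 0.132 FPKM in Pax7 KO and 0.245 FPKM in WT.

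The proximal promoters of Cxcl1, Cxcl2 and Cxcl3 are shown because these neighbouring genes hold one and the same motif. The letters are those of RefSeq on GRCm38.p6, another build than that of the deposited table, each 5′ to 3′ on the strand of the gene, from 250 bases before to 50 after its start. Capitals mark matches to the NF-kB consensus motif, searched on both strands, with overlapping matches merged. Cxcl1 lies at chr5:90890995-90891294, Cxcl2 at chr5:90903649-90903948 and Cxcl3 at chr5:90785851-90786150, all on the plus strand.
Cxcl1: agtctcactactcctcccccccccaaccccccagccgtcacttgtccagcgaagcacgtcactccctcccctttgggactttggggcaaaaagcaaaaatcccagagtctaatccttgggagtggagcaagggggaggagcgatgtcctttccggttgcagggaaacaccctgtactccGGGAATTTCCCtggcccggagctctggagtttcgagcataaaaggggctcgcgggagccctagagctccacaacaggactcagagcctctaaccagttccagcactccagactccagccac
Cxcl2: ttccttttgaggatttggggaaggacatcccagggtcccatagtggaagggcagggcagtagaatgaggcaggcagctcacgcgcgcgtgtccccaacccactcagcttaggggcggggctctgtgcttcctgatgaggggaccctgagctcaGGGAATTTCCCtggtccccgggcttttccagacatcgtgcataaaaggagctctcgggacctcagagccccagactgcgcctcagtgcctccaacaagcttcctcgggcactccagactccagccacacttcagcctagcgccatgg
Cxcl3: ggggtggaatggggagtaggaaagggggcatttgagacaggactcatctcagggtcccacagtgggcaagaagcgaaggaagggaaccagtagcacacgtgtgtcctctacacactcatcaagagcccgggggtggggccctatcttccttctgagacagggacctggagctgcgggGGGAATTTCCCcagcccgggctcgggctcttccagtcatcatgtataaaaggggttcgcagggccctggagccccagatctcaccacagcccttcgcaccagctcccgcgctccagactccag
The 3 promoters hold the same 11 letters, GGGAATTTCCC, beginning 71 bases before the start in Cxcl1, 97 in Cxcl2 and 73 in Cxcl3. That run stands in 0.0426% of the 32851 promoters of the table (14 of them), and the NF-kB consensus in 8.46%. The run was taken from these 3 promoters, which are among the 14, so its low share is no test. A promoter was found for 40 of the 56 members and for 18 of the 24 above the limit; Cxcl5, Cxcl16, Ccl2, Ccl5, Ccl7 and Ccl11 have no entry. Among the 18 genes, 6 had the NF-kB consensus: Cxcl1, Cxcl2, Cxcl3, Cxcl10, Ccl9 and Ccl27a, where 9.55% of all genes with a promoter had it. The paired homeodomain motif that Pax7 can bind (TAAT and ATTA with 3 bases between them) was in none of the 18 and in 0.555% of all genes. A motif this rare would seldom be met in 18 promoters, so its absence says little. The E-box CAGCTG, which Myod1 can bind, was in 3 of the 18, Ccl9, Cx3cr1 and Cxcl9, and in 18.3% of all genes. The AP-1 motif TGANTCA was in 5, Ccl27a, Ccl9, Ccr4, Cxcl10 and Cxcl9, and in 8.97% of all genes. A match describes the letters only and shows no binding.

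The interferon-inducible ligands of Cxcr3, which attract activated T cells, differed from each other. Cxcl10 (chromosome 5, 92760867 to 92843653, as listed) was at 10.0 FPKM in Pax7 KO and 4.05 FPKM in WT, 2.47-fold higher. Its log2 ratio was 1.12 as deposited and 0.70 relative to the median gene, and the interval of its FPKM ratio was 1.07 to 1.54 on the log2 scale. The listed locus of Cxcl10 also carries Cxcl11 and Art3, an ADP-ribosyltransferase gene. Art3 was at 6.24 FPKM in Pax7 KO and 1.99 FPKM in WT, and the sum of the 3 rows had a log2 ratio of 1.27. The labels do not say whether reads were assigned by strand, so the value of Cxcl10 is uncertain to that extent. Cxcl9, next to this locus, was at 2.31 FPKM in Pax7 KO and 3.17 FPKM in WT, lower in Pax7 KO with an interval of -0.78 to -0.16. Cxcl11 was at 0.0614 FPKM in Pax7 KO and 0.132 FPKM in WT.

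The promoter of Cxcl10 (chr5:92348840-92349139, minus strand, GRCm38.p6) is shown because this gene had the largest ratio of Pax7 KO to WT FPKM of the 24. Capitals mark the NF-kB consensus and, as the first run, the core of the interferon-stimulated response element (GAAA, any 2 bases, GAAA).
Cxcl10: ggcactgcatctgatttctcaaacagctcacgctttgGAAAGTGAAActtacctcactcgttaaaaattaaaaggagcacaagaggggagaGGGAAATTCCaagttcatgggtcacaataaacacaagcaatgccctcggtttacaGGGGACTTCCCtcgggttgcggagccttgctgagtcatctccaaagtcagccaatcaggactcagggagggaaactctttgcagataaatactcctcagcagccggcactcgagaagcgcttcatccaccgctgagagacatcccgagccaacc
The response element core begins 213 bases before the start, and the NF-kB matches begin 159 and 104 bases before it, the last as a pair of overlapping matches. That core was found in 3 of the 18 genes, Cxcl10, Ccl19 and Cxcl14, and in 3.99% of all genes with a promoter. Irf1, an interferon-induced factor, was at 16.9 FPKM in Pax7 KO and 10.0 FPKM in WT.

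The other CXC and CX3C ligands above the limit, Cx3cl1, Cxcl16, Cxcl12 and Cxcl14, were higher as deposited, where 11.4% of all genes were lower. Cx3cl1 and Cxcl16 are made as membrane proteins. Cx3cl1 (chromosome 8, 97296080 to 97306326), fractalkine, was at 15.0 FPKM in Pax7 KO and 8.85 FPKM in WT, a log2 ratio of 0.70. Cxcl16, which is also shed from the membrane, was at 10.5 FPKM in Pax7 KO and 7.10 FPKM in WT; its locus is shared with Zmynd15, at 1.33 FPKM in Pax7 KO and 1.15 FPKM in WT. Relative to the median gene these ratios were 0.28 and 0.09, and the counting interval of Cxcl16, 0.39 to 0.74 on the log2 scale without a pseudocount, includes the median gene, at 0.50 on that scale. The sheddases Adam10 and Adam17, which cut both ligands, had log2 ratios of 0.39 and 0.44. Cxcl12 (chromosome 6, 117118553 to 117131386), the ligand of Cxcr4 and Cxcr7, was at 32.2 FPKM in Pax7 KO and 27.6 FPKM in WT. Its log2 ratio of 0.21 was -0.21 relative to the median gene. Cxcl14, a ligand made by many epithelia and stromal cells, was at 14.0 FPKM in Pax7 KO and 10.3 FPKM in WT, a log2 ratio of 0.41.

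The monocyte chemoattractants Ccl2 and Ccl7, ligands of Ccr2, were the leading CC ligands. Ccl2 (chromosome 11, 81849079 to 81850954) was at 125 FPKM in Pax7 KO and 109 FPKM in WT, above 97.9% of all genes in Pax7 KO and 98.4% in WT. Ccl7 (chromosome 11, 81859214 to 81861025) was at 71.3 FPKM in Pax7 KO and 51.7 FPKM in WT. Neither was far from the median gene, at -0.23 for Ccl2 and 0.03 for Ccl7. Ccl11, eotaxin, a ligand of the eosinophil receptor Ccr3 from the same cluster, was at 8.80 FPKM in Pax7 KO and 4.58 FPKM in WT. It was 1.92-fold higher in FPKM, with a log2 ratio of 0.81, or 0.39 relative to the median gene. The other genes of this cluster, Ccl1, Ccl8 and Ccl12, were each under 0.21 FPKM in both libraries.

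The second CC cluster of chromosome 11 lay lower in Pax7 KO at 1 of its 2 members above the limit. Ccl5 (chromosome 11, 83339281 to 83344020), RANTES, a T cell and monocyte attractant, was at 7.96 FPKM in Pax7 KO and 14.0 FPKM in WT. Its FPKM was 1.75-fold lower in Pax7 KO, its log2 ratio -0.74, and its ratio relative to the median gene -1.16. About 113 fragments in Pax7 KO and 236 in WT gave an interval of -1.14 to -0.48. Ccl9, a ligand of Ccr1, was at 7.78 FPKM in Pax7 KO and 6.82 FPKM in WT. Ccl3 and Ccl4, the macrophage inflammatory proteins, were under 0.32 FPKM in both libraries. Ccl6 was at 1.15 FPKM in Pax7 KO and 0.688 FPKM in WT.

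The ligands of Ccr7, which guide dendritic and T cells to lymph nodes, were low. Ccl21a (chromosome 4, 42786392 to 42787525) was at 0.227 FPKM in Pax7 KO and 1.79 FPKM in WT, a log2 ratio of -1.19. The value rests on about 4 fragments in Pax7 KO and 39 in WT, and the interval of its FPKM ratio ran from -4.98 to -1.56. Ccl21b and Ccl21c are near-identical copies, so the 3 rows were also summed, which gave 0.549 FPKM in Pax7 KO and 2.57 FPKM in WT and a log2 ratio of -1.21. Ccl19 was at 2.21 FPKM in Pax7 KO and 2.55 FPKM in WT, with an interval of -0.88 to 0.43. That interval includes equal FPKM but not the median gene, at 0.50 on the same scale. The log2 ratio of Ccl19 relative to the median gene was -0.56. Ccr7 itself was at 0.448 FPKM in Pax7 KO and 1.18 FPKM in WT, on about 19 fragments in Pax7 KO and 59 in WT. Of the 4 lymphatic endothelial markers, Prox1 and Lyve1 were under 0.48 FPKM in both libraries. Flt4 was at 10.0 FPKM in Pax7 KO and 5.79 FPKM in WT, and Pdpn at 61.1 FPKM in Pax7 KO and 60.0 FPKM in WT. The dendritic cell genes H2-Aa and H2-Ab1 were at 0.812 and 1.08 FPKM in Pax7 KO, against 1.96 and 2.64 FPKM in WT; their part in the result was not tested.

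Of the CC ligands with tissue-restricted roles, Ccl25, the thymus and gut ligand of Ccr9, was at 5.49 FPKM in Pax7 KO and 3.02 FPKM in WT, a log2 ratio of 0.69. Ccl27a, a skin ligand of Ccr10, was at 1.43 FPKM in Pax7 KO and 1.18 FPKM in WT. Its interval of -0.52 to 1.03 includes both equal FPKM and the median gene, at 0.50 on that scale. The locus of Ccl27a is shared with Il11ra1, at 6.76 FPKM in Pax7 KO and 3.56 FPKM in WT.

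**Figure D2:**
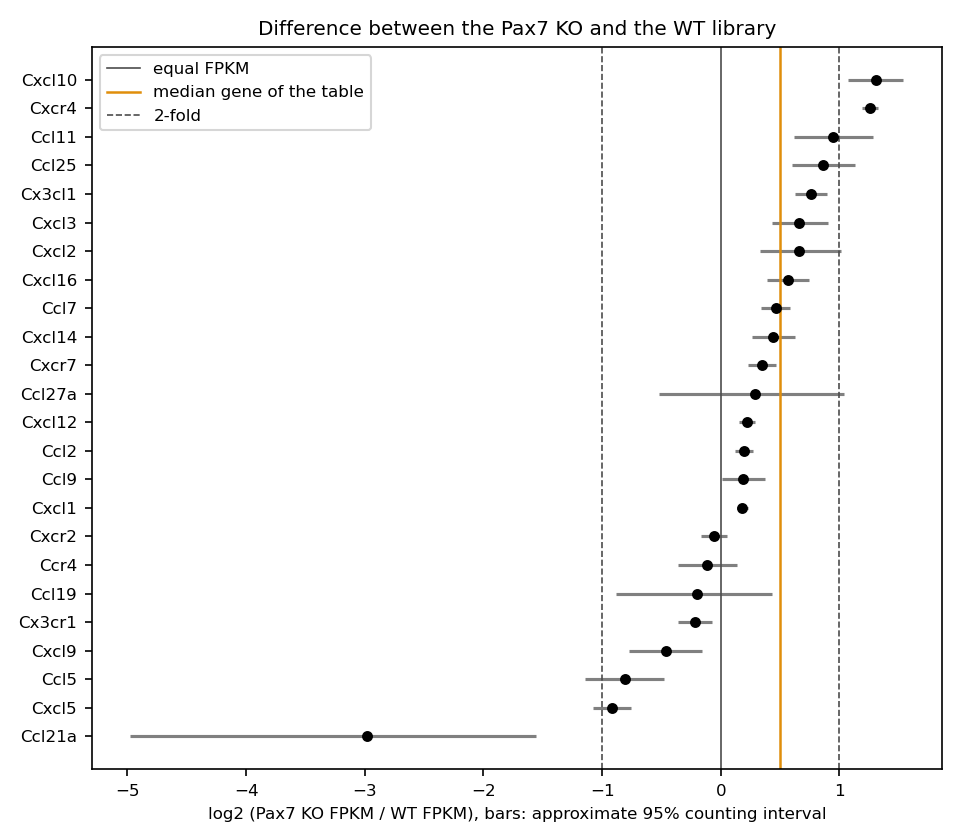
Log2 of the FPKM ratio, Pax7 KO over WT without a pseudocount, for the 24 members, with bars for the approximate 95% counting interval, dashed lines at 2-fold and an orange line at the median gene of the table (0.50 on this scale). The intervals of Cxcl10, Cxcr4 and Ccl21a lie wholly past 2-fold, and those of Cxcl5, Ccl5, Cxcl9 and Cx3cr1 lie below 0.

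Among the receptors, Cxcr4 stood apart in level and in difference. Cxcr4 (chromosome 1, 130484776 to 130488876), the receptor of Cxcl12, was at 135 FPKM in Pax7 KO and 56.3 FPKM in WT, 2.39-fold higher. Its log2 ratio was 1.24 as deposited and 0.82 relative to the median gene, and the interval of its FPKM ratio was 1.19 to 1.33. In Pax7 KO it ranked 2 among the members, above Ccl2, and in WT 3, below it. Cxcr7 (Ackr3 in RefSeq), a scavenging receptor for the same ligand, was at 18.5 FPKM in Pax7 KO and 14.5 FPKM in WT, a log2 ratio of 0.33. The 3 genes of this axis thus had log2 ratios of 1.24 for Cxcr4, 0.33 for Cxcr7 and 0.21 for Cxcl12. Cxcr4 is made by endothelial cells as well as by muscle progenitors. The 14 endothelial markers had a median log2 ratio of 0.77, with 4 at least 2-fold higher as deposited, where 5.06% of all genes were. Relative to the median gene their median was 0.35, with 1 at least 2-fold higher, against 1.35% of all genes. The 8 satellite cell markers above the limit had a median of -1.31 as deposited and -1.74 relative to the median gene. On either scale 5 were at least 2-fold lower, against 0.689% of all genes as deposited and 1.45% relative to the median gene. The part of these cells in the Cxcr4 value was not tested.

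Cxcr2, Cx3cr1 and Ccr4, receptors best known from leukocytes, were present at levels that differed little as deposited. Cxcr2, the receptor of the ELR-type ligands, was at 18.5 FPKM in Pax7 KO and 19.3 FPKM in WT, with an interval of -0.17 to 0.05. Cx3cr1, the receptor of Cx3cl1 on monocytes and microglia, was at 7.20 FPKM in Pax7 KO and 8.37 FPKM in WT, an interval of -0.36 to -0.07. Ccr4, a receptor of helper T cells, was at 4.05 FPKM in Pax7 KO and 4.38 FPKM in WT, and its interval of -0.36 to 0.13 includes no difference. Relative to the median gene these 3 stood at -0.48, -0.61 and -0.51, and the 3 intervals lay wholly below the median gene, at 0.50 on their scale.

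Markers of the leukocytes that carry these receptors differed in level by cell type. Ptprc, the pan-leukocyte surface gene CD45, was at 0.226 FPKM in Pax7 KO and 0.318 FPKM in WT. Among 13 monocyte and macrophage markers, 5 passed the limit, and the list summed to 31.7 FPKM in Pax7 KO and 26.2 FPKM in WT. The 5 had a median of -0.10 relative to the median gene, and 4 of them lay below it. Tyrobp and C1qb were at 2.56 and 1.41 FPKM in Pax7 KO, against 3.43 and 2.13 FPKM in WT. Cd14 was at 2.05 FPKM in Pax7 KO and 1.29 FPKM in WT. Lyz2, lysozyme, was at 13.0 FPKM in Pax7 KO and 7.93 FPKM in WT, and Cd68 at 10.5 FPKM in Pax7 KO and 8.22 FPKM in WT. Csf1r, the macrophage growth factor receptor, was at 0.379 FPKM in Pax7 KO and 0.488 FPKM in WT, and Aif1, like the dendritic cell gene Cd209a, was at the lowest listed value in Pax7 KO. Of 10 lymphocyte markers, 2 passed, with a list sum of 6.85 FPKM in Pax7 KO and 7.69 FPKM in WT. All 8 neutrophil markers passed, and they summed to 153 FPKM in Pax7 KO and 45.1 FPKM in WT. As deposited 6 were at least 2-fold higher, against 5.06% of all genes, and relative to the median gene 4, against 1.35%. Of the 8, S100a9 was at 52.7 FPKM in Pax7 KO and 9.97 FPKM in WT, while Csf3r, the neutrophil growth factor receptor, was at 2.40 FPKM in Pax7 KO and 2.53 FPKM in WT. The part of neutrophils in the levels of Cxcr2 was not tested. The 4 mast cell markers summed to 6.78 FPKM in Pax7 KO and 6.24 FPKM in WT, and the 5 dendritic cell markers to 2.03 FPKM in Pax7 KO and 4.97 FPKM in WT.

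The other 13 receptors did not reach a mean of 1 FPKM. These included Ccr2, the receptor of Ccl2 and Ccl7, at 0.0153 FPKM in Pax7 KO and 0.10 FPKM in WT. Cxcr3, the receptor of Cxcl9 and Cxcl10, was at 0.0585 FPKM in Pax7 KO and 0.391 FPKM in WT, on about 2 fragments in Pax7 KO and 17 in WT. Ccr1, Ccr3, Ccr6, Ccr9, Ccr10 and Cxcr5 were under 0.55 FPKM in both libraries. Ccr8, Cxcr1 and Cxcr6 were at the lowest listed value, 0.001, in Pax7 KO and at 0.346, 0.143 and 0.144 FPKM in WT. At this depth differences among these receptors rest on few fragments.

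Set beside their receptors, some ligands had a receptor above 1 FPKM in the same culture and others did not. For Cxcr2, the ligands Cxcl1, Cxcl2, Cxcl3 and Cxcl5 summed to 184 FPKM in Pax7 KO and 172 FPKM in WT, leaving out Ppbp, which lies outside the symbol rule. The ligands of Ccr2 summed to 196 FPKM in Pax7 KO and 161 FPKM in WT, while the receptor was near the lowest values. For Cxcr3 the ligands summed to 12.4 FPKM in Pax7 KO and 7.36 FPKM in WT, again with the receptor under 1 FPKM. Ccr4 was higher than the sum of its ligands, Ccl17 and Ccl22, which came to 1.10 FPKM in Pax7 KO and 0.734 FPKM in WT. Of the receptors with a ligand assigned, Cxcr4, Cxcr2 and Cx3cr1 were the 3 for which both sides stood above 5 FPKM in both libraries. Each ligand is counted here under 1 principal receptor, so Cxcr7, which also binds Cxcl12, is left out.

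**Figure D3:**
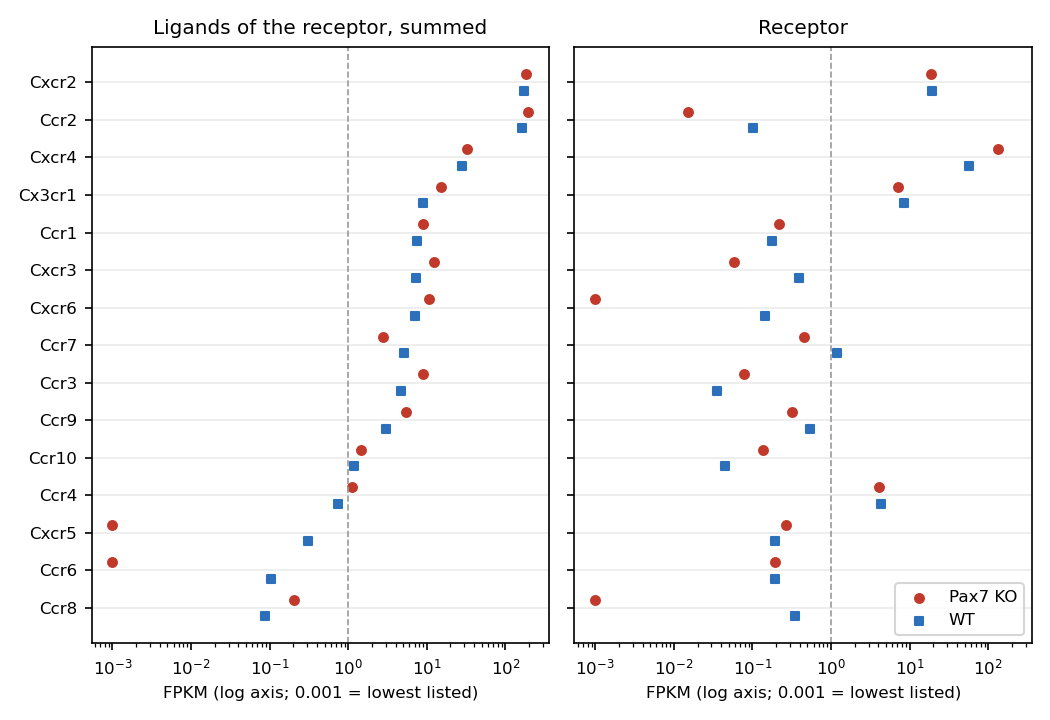
Summed FPKM of the ligands assigned to each receptor (left) and FPKM of the receptor (right), on log axes, in the Pax7 KO library (red circles, upper) and the WT library (blue squares, lower), with a dashed line at 1 FPKM. Cxcr2, Cxcr4 and Cx3cr1 have ligand and receptor above 5 FPKM, whereas the ligands of Ccr2 read 196 FPKM in Pax7 KO and 161 FPKM in WT and the receptor 0.015 FPKM in Pax7 KO and 0.10 FPKM in WT.

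The 19 ligands under the limit were also few in fragments. Across all 56 members, 8 were at the lowest listed value in Pax7 KO alone, 4 in WT alone and 3 in both. The 8 were Ccl1, Ccl4, Ccl20, Ccl21b, Cxcl13, Ccr8, Cxcr1 and Cxcr6, with about 3 to 10 fragments each in WT. The 4 were Ccl8, Ccl17, Ccl21c and Ccl27b, and the 3 were Ccl12, Ccl26 and Ccl28. Ccl17 was at 0.714 FPKM in Pax7 KO and at the lowest value in WT. Ccl22, Ccl24 and Cxcl17 were under 0.74 FPKM in both libraries. At the limit of a mean of 1 FPKM, Ccl21a lay just inside at 1.01 and Ccl6 just outside at 0.920.

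Within each library, and by approximate counting error alone, the levels were mostly separated at the top and close below it. In Pax7 KO the counting intervals of Cxcl1, Cxcr4, Ccl2, Ccl7, Cxcl12 and Cxcr7 did not overlap those of their neighbours above, whereas from Cxcr2 (18.5 FPKM) down most neighbours overlapped. In WT, Cxcr4 at 56.3 and Ccl7 at 51.7 FPKM overlapped, and so did Cxcr7 at 14.5 and Ccl5 at 14.0 FPKM. Cxcl5 ranked 10 in Pax7 KO and 6 in WT, and Cxcl10 ranked 12 in Pax7 KO and 17 in WT.

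In the authors' deposited table of called genes, 6 members appeared: Cxcr4 and Cxcl10 in the higher list and Ccl21a, Ccl5, Ccr7 and Cxcl5 in the lower list. Of the 24 above the limit, 2 were thus listed higher, where 5.20% of all genes were, and 3 lower, where 2.49% were. That table rests on the same 2 libraries.

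Chemokine genes outside the symbol rule were measured as well. Of 11 in the table, 8 passed the limit and 1 was at least 2-fold higher as deposited, where 5.06% of all genes were. It was Rarres2, the ligand chemerin, at 47.3 FPKM in Pax7 KO and 23.1 FPKM in WT, and its locus is shared with another row. None of the 8 was 2-fold lower, and none was 2-fold higher relative to the median gene. Cklf, a chemokine-like factor, had a log2 ratio of 0.67. Ppbp, a platelet ligand of Cxcr2, was at 21.3 FPKM in Pax7 KO and 11.3 FPKM in WT, and Pf4, another platelet chemokine, at 2.36 FPKM in Pax7 KO and 3.94 FPKM in WT. Darc, a scavenging receptor of venules and red cells, was at 11.1 FPKM in Pax7 KO and 13.2 FPKM in WT. Xcr1, a receptor of dendritic cells, was at 4.48 FPKM in Pax7 KO and 4.73 FPKM in WT.

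Signalling genes of the pathway lay close to the median gene. Of 27 genes of receptor signalling and desensitisation above the limit, 1 was at least 2-fold higher as deposited, where 5.06% of all genes were. None was 2-fold higher relative to the median gene, and none was 2-fold lower on either scale, with a median log2 ratio of 0.53. The 1 gene higher as deposited was Rgs2, a GTPase-activating regulator, at 4.85 FPKM in Pax7 KO and 1.81 FPKM in WT. Rgs3, of the same family, and Gng5, a G protein subunit, had log2 ratios of 0.91 and 0.76. Gnai2, the inhibitory G protein through which chemokine receptors signal, was at 413 FPKM in Pax7 KO and 223 FPKM in WT. Arrb2, which desensitises them, was at 9.74 FPKM in Pax7 KO and 11.2 FPKM in WT. Other desensitisation genes of the list went the other way as deposited. Arrb1 was at 9.16 FPKM in Pax7 KO and 6.06 FPKM in WT, and Adrbk1, Grk5 and Grk6 had log2 ratios of 0.56, 0.53 and 0.48. Among 24 genes of NF-kB and its cytokine inducers none passed 2-fold in either direction, and the median was 0.53. As deposited, 5.06% of all genes were 2-fold higher and 0.689% were 2-fold lower. The inhibitor gene Nfkbia, an NF-kB target, was at 245 FPKM in Pax7 KO and 153 FPKM in WT, Tnfrsf1a, a TNF receptor, at 51.2 FPKM in Pax7 KO and 25.7 FPKM in WT, and the cytokine gene Il6 at 2.39 FPKM in Pax7 KO and 3.59 FPKM in WT. The kinase gene Chuk and the adaptor gene Myd88, which act upstream of NF-kB, had log2 ratios of 0.85 and 0.74. Il1b stayed under 0.13 FPKM in both libraries. Of 12 proteases that process chemokines, 3 passed 2-fold upwards as deposited, where 5.06% of all genes did, and none downwards: Elane, Prtn3 and Ctsg, which are neutrophil granule proteases. Relative to the median gene only Elane of the 12 passed 2-fold, at 1.74, where 1.35% of all genes were 2-fold higher. Elane is also one of the neutrophil markers above. The FPKM of these 3 were 8.44, 5.06 and 3.72 in Pax7 KO, against 1.11, 1.42 and 1.13 in WT. Mmp2, a matrix protease, had a log2 ratio of 0.65.

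Markers of other cell types were present as well. The 8 fibroblast markers summed to 253 FPKM in Pax7 KO and 158 FPKM in WT (median log2 ratio 0.74), and the 9 smooth muscle and pericyte markers to 969 FPKM in Pax7 KO and 878 FPKM in WT (median 0.45). The 7 adipocyte markers summed to 1103 FPKM in Pax7 KO and 211 FPKM in WT, and the 6 keratinocyte markers to 41.4 FPKM in Pax7 KO and 2.80 FPKM in WT. Most of the keratinocyte sum in Pax7 KO came from Krt5, at 18.9 FPKM in Pax7 KO and 0.212 FPKM in WT, and Krt14, at 19.9 FPKM in Pax7 KO and 0.496 FPKM in WT. The highest of the other 4, Dsg3, was at 1.16 FPKM in Pax7 KO and 0.937 FPKM in WT. The 4 lymphatic endothelial markers summed to 71.9 FPKM in Pax7 KO and 66.6 FPKM in WT. The part of each cell type in the ligand values was not tested.

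**Figure D4:**
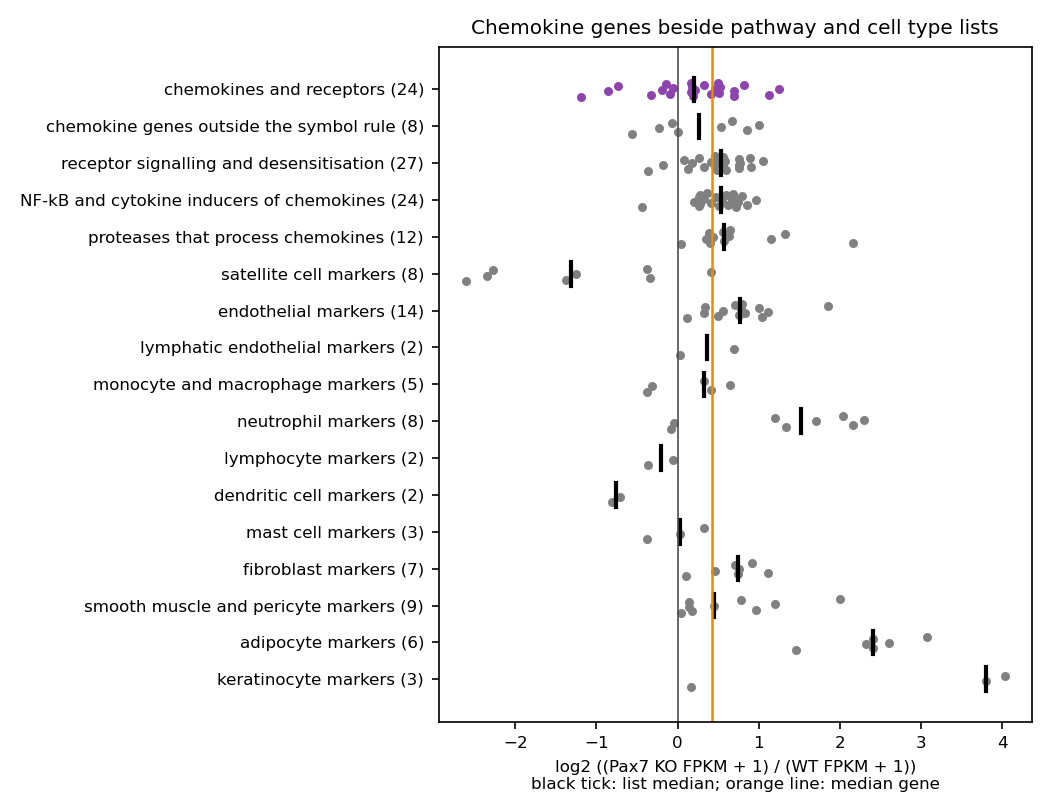
Log2 ratio of each gene with a mean FPKM of 1 or more (points; number in brackets) in the chemokine family (purple) and in the pathway and marker lists (grey), with a black tick at each median, a line at 0 and an orange line at the median gene, 0.42. The chemokine family is centred at 0.20, left of the NF-kB and receptor signalling lists at 0.53, and spans -1.19 to 1.24.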

How the data were processed

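The authors deposited FPKM values, 1 column for Pax7 KO and 1 for WT, and lists of 713 higher and 382 lower genes with the ratio (fold) of KO to WT FPKM, per the file headers. Tools named in the submitters' processing notes are Cuffdiff 2.1.1, Cufflinks 2.1.1 and TopHat2 2.0.9, with the mm9 build; their roles and the rule behind the lists are not stated there. Members and gene lists were chosen with earlier results of these data known. The rule named Pax7, all members, leukocyte markers at the lowest value and up to 4 genes of each other list with the largest log2 ratio, of which those of marker lists are printed only beside a member they bear on. Arrb2, Nfkbia, Il6, Il1b, Adam10, Adam17, Irf1, Ptprc, Csf1r, Csf3r, Prox1, Lyve1, Xcr1, Darc and rows sharing a locus were chosen after their values were seen. So were Arrb1, Adrbk1, Grk5, Grk6, Itga7, Vcam1 and Heyl. The rows of 1 repeated symbol were summed. Some genes are counted in their lists but not reported by name here.

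Log2 ratios used a pseudocount of 1 and genes with a mean FPKM of 1 or more. The values 0.001 are the lowest listed, in 2590 genes in Pax7 KO and 2031 in WT. Depth was sought as the step at which FPKM times the longest GENCODE M21 transcript falls on whole fragments in 4519 single-transcript genes. The mean cosine was 0.49 in Pax7 KO and 0.50 in WT (exact multiples give 1), or 0.57 in each at the larger reading with 100 bases taken off each length. Fragments and the 95% Clopper-Pearson intervals are therefore approximate and assume that no scaling was applied. The method was also run on simulated data made of whole fragments at the same lengths. That run cannot vouch for the depth found here, where the fit was loose. A base was added to each listed locus start, because this gave the RefSeq gene length at 6923 of 17032 loci, against 436 without it. Software was matplotlib 3.10.9, scipy 1.17.1, pandas 2.3.3 and numpy 2.4.6 under Python 3.11.15.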

Additional observations from a re-analysis of the deposited data

How the results depend on the processing

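No paired analysis was possible because each genotype has 1 library, and no replicate could be left out. The count of 2 members at least 2-fold higher in Pax7 KO (Cxcr4 and Cxcl10) held with pseudocounts of 0.1 and 0.5, without a pseudocount, without a filter, with a mean FPKM of 5 or more, in the authors' lists and with the counting interval wholly past 2-fold. It was 0 when centred on the median gene, with or without a pseudocount, and with upper-quartile scaling, 5 at a 1.5-fold limit, and 1 without members at a shared locus, which removes Cxcl10. The count of 1 lower member (Ccl21a) was 3 when centred on the median gene, with or without a pseudocount, with upper-quartile scaling, at 1.5-fold and in the authors' lists, in each case Ccl21a, Ccl5 and Cxcl5. It was 0 without shared loci and with the filter at 5, both of which remove Ccl21a. The median log2 ratio of members, 0.20, was 0.21 to 0.27 under other pseudocounts, none, and the filter at 5. It reversed to -0.22 when centred on the median gene, to -0.25 when centred without a pseudocount and to -0.21 with upper-quartile scaling, shifts that follow from the rescaling itself. Over all 56 members without a filter it was 0.024. Of 144 values of single members under another pseudocount or scaling, 64 moved by more than their counting interval's half-width, and none of the 3 genes past 2-fold changed sign. The use of the counting interval, and of centring without a pseudocount, was chosen after seeing the data. Depth limits the 32 members under the filter and Ccl21a.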
